A study of Mus musculus with 49 samples.

Results

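The genes described here are 10 transcription factors of the fat cell programme: the nuclear receptors Pparg, Ppara and Ppard, their RXR partners Rxra, Rxrb and Rxrg, the C/EBP factors Cebpa, Cebpb and Cebpd, and the Krüppel-like factor Klf15. They were taken by symbol from the deposited tables, 10 of 22869 gene symbols, and cover 16 of 28644 transcript rows. For each symbol the row with the highest total over the libraries was used, and for Pparg both of its rows are also given. The study measured RNA by sequencing in white adipose tissue from C57BL/6 and 129S1/SvImJ mice, both inbred, and the labels name no engineered allele for any group. Epididymal fat (eWAT, a visceral depot) was taken on chow (5 libraries per strain) and after 12 weeks of the low fat diet D12450B (5 C57BL/6 and 4 129S1/SvImJ libraries). Inguinal fat (iWAT, a subcutaneous depot) was taken after the same 12 weeks (4 libraries per strain). In the drug experiment (eWAT, 4 libraries per strain and treatment), both arms received D12450B from an age of 6 weeks. From 16 to 18 weeks of age the treated arm had 36 mg rosiglitazone, a drug that binds and activates PPARG, in each kg of this diet, and the control arm stayed on D12450B alone. The control arm thus had 12 weeks of this diet, as long as the 12-week groups, which are numbered as separate experiments. No source used here states the age of the chow and 12-week mice. The labels do not say that the replicates are separate animals, so a p-value measures the spread between these samples only.

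PPARs are nuclear receptors that bind fatty acid derived ligands and drugs, and they occupy DNA as heterodimers with an RXR. PPARG and CEBPA switch each other on during fat cell formation, after an early wave of CEBPB and CEBPD, and together hold the mature fat cell state. PPARA drives fatty acid oxidation and is abundant in liver and brown fat, PPARD is broadly expressed, and KLF15 is a glucocorticoid-induced factor that controls amino acid breakdown and the glucose transporter gene Slc2a4.

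The upstream sequences shown are those of the adipocyte Pparg start site, of Cebpa and of the inner Rxrg start site. Each of these 3 genes was called in at least 1 strain comparison below, and its window lies outside GENCODE exons. The same holds for both Rxra windows and the outer Rxrg window, which are not shown, so the windows shown are a selection. Each is the stretch of 250 bases that ends just before a RefSeq start site (build GRCm38.p6), read 5′ to 3′ on the plus strand. The Pparg window lies at chr6:115421816-115422065, the Cebpa window at chr7:35119043-35119292 and the Rxrg window at chr1:167618015-167618264. Capitals mark matches, on either strand, to the C/EBP-type motif TTNNGCAA, to CCAAT, to AGGTCA, the hexamer that nuclear receptors bind, and to TATAAA.
Pparg, adipocyte start: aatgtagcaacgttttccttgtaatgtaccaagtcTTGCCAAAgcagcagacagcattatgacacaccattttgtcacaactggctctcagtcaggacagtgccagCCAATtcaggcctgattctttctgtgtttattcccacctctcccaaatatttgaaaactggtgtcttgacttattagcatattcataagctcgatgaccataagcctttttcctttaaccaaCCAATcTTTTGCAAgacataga
Cebpa: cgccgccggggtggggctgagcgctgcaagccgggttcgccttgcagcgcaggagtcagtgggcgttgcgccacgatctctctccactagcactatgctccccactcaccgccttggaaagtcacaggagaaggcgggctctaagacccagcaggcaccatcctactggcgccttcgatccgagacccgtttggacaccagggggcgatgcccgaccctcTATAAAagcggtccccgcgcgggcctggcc
Rxrg, inner start: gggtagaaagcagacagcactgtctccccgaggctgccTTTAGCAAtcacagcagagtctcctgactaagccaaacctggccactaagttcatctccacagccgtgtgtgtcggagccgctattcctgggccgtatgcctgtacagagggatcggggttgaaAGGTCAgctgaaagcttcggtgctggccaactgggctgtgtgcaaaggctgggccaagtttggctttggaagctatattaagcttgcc
The Pparg window holds a C/EBP-type match from 16 to 9 bases upstream of the start and another, on the minus strand, from 215 to 208 bases upstream. It also holds 2 CCAAT matches, and none of the marked matches overlap. The Rxrg window holds 1 C/EBP-type match and 1 AGGTCA, and the Cebpa window holds TATAAA from 30 to 25 bases upstream of its start. Over 32851 promoter windows of the same length, 9.56% hold the C/EBP-type motif, 33.8% CCAAT, 14% AGGTCA and 12.4% TATAAA. A direct repeat of AGGTCA spaced by 1 base, the arrangement that PPAR and RXR dimers prefer, is in 11 of the 32851 windows and in none of the 14 searched for 9 of these genes (no window for Cebpd). A match is a description of letters and not of binding.

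All values are the authors' normalized whole-number scores, with a floor of 1 and unknown depth, and levels below are given as mean ± SD of these scores. The epididymal or inguinal label was checked against markers. The 6 mesothelial markers, which line the abdominal cavity, summed to 270 to 2745 in the eWAT libraries and to 6 to 27 in the iWAT libraries, and the 9 adipocyte markers summed to 112686 or more in every library but replicate 2 of 129S1/SvImJ on chow. That library had an adipocyte sum of 23043 and a sum of 231419 for 8 epididymis markers. Replicate 1 of the same group had an epididymis sum of 36395, against 52 to 163 in the other 8 chow libraries. Replicate 3 of C57BL/6 eWAT after 12 weeks carried a skeletal muscle sum of 10867, against 152 to 519 in the other eWAT libraries of that experiment. Replicate 4 of iWAT stood apart in both strains by brown fat markers, with sums of 5839 in C57BL/6 and 5356 in 129S1/SvImJ against 344 to 998 in the other 6 iWAT libraries. All 4 C57BL/6 iWAT libraries also stood apart in how their values are spread. They held 467 to 679 distinct values with 32.1% to 37.7% of rows at the floor. The other 13 eWAT and iWAT libraries of the 12-week groups held 1474 to 1758 distinct values, with 22.7% to 26.6% at the floor. The 4 C57BL/6 iWAT libraries are a whole group. In the iWAT strain comparison, the depot comparison of C57BL/6 and strain by depot, this property and the group therefore cannot be told apart. The 12-week eWAT and iWAT libraries are also numbered as separate experiments, so depot and experiment cannot be told apart in any depot comparison.

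Per kilobase of transcript, the mean levels had the order Cebpa, Pparg, Rxra, Klf15 from the highest downwards in all 10 groups, although Rxra and Klf15 were within their spread in some (252 ± 8.73 and 181 ± 87.2 per kb in C57BL/6 on the control diet). Transcript lengths were those of GENCODE M21. In C57BL/6 eWAT after 12 weeks, Cebpa stood at 927 ± 32.7 per kb (SD, n = 5), Pparg at 821 ± 32.9, Rxra at 268 ± 23.2 and Klf15 at 188 ± 19.5. The remaining 6 genes lay between 23.3 and 74 per kb there, and among them Rxrg (44.8 ± 2.45) and Ppara (42.2 ± 6.63), and Cebpd (24.3 ± 4.91) and Ppard (23.3 ± 2.19), were closer than their spread. In 129S1/SvImJ eWAT of the same experiment, Cebpa stood at 1375 ± 207 per kb (SD, n = 4), Pparg at 818 ± 157 and Rxra at 219.6 ± 12.4. Klf15 followed there with 135 ± 56.8 per kb, then Rxrg with 99.1 ± 22 and Ppara with 79.8 ± 10.3, and these 3 did not differ beyond their spread.

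Over 11 comparisons fitted with limma on log2(value + 1) across all genes, a gene was called at a Benjamini-Hochberg adjusted p under 0.05, and 14 of the 110 tests of these genes were called. The largest number was 6 of 10, between the strains in eWAT after 12 weeks, where 21.7% of all genes were called. Between the strains, 2 of 10 were called on the control diet (background 17.5%), 3 of 10 on rosiglitazone (10.7%), 0 of 10 on chow (4.99%) and 0 of 10 in iWAT (1.69%). Rosiglitazone changed 2 of 10 in 129S1/SvImJ (5.51%) and 0 of 10 in C57BL/6 (2.43%). The depots differed in 1 of 10 in C57BL/6 (13.1%) and in 0 of 10 in 129S1/SvImJ (1.72%). Of the tests of a difference between effects, 0 of 10 were called for strain by rosiglitazone (0.21%) and 0 of 10 for strain by depot (3.14%). These shares are over all symbols, with those at or near the floor. In a fit of genes with a mean value of at least 10, 5715 of 12932 were called between the strains in eWAT after 12 weeks. In such a fit 4251 of 12664 were called between the strains on the control diet, 2723 on rosiglitazone, and 1513 with the drug in 129S1/SvImJ. Between the depots of C57BL/6, 2920 of 13090 were called. Among the comparisons with 0 calls, an unadjusted limma p under 0.05 was reached by 1 of these genes on chow (17.2% of all genes). Rosiglitazone in C57BL/6 held 1 (13.9%) and strain by rosiglitazone 4 (9.9%). Strain by depot held 1 (16.1%), strain in iWAT 0 (12.6%) and the depots of 129S1/SvImJ 0 (13.3%). Ppard, Cebpb and Klf15 were called in no comparison.

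**Figure D1:**
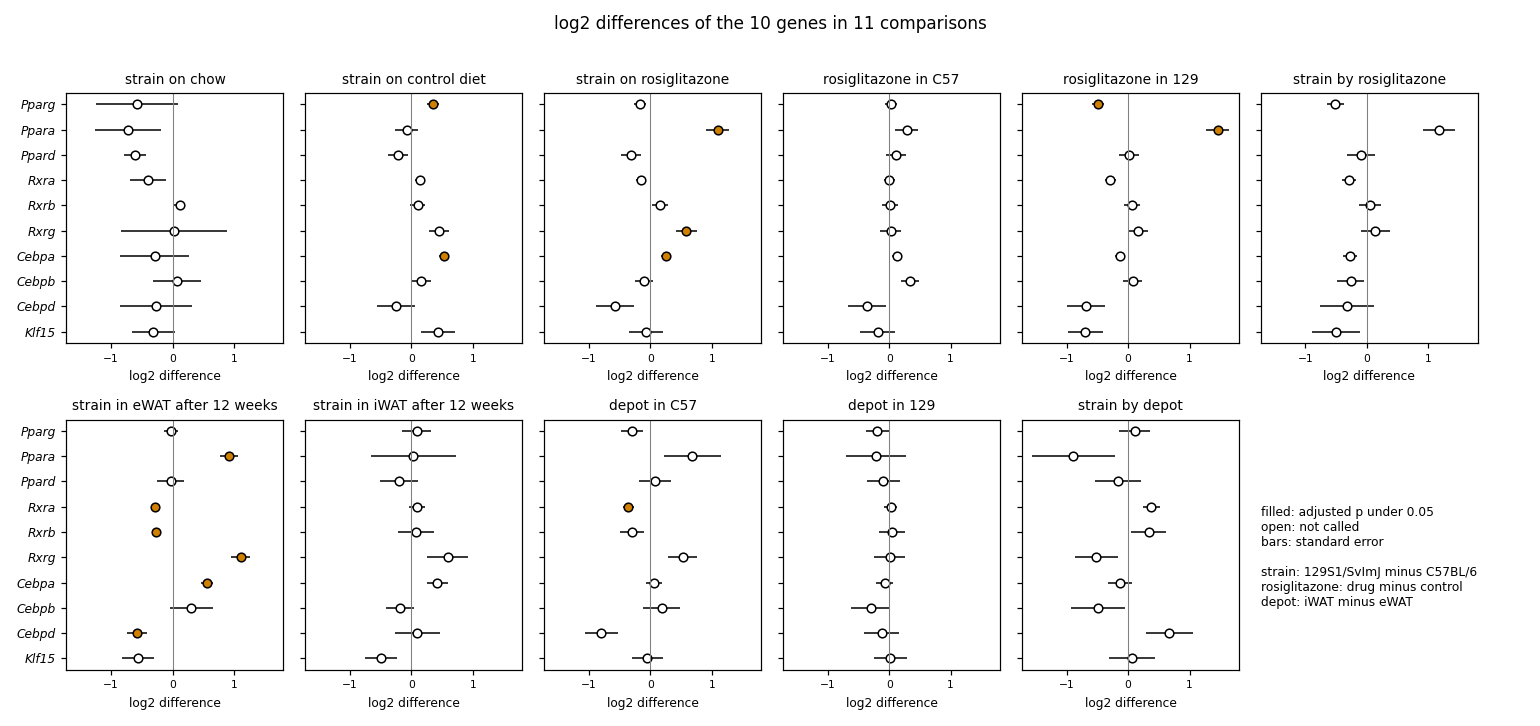
The log2 difference of each gene (horizontal axis, log2 of value + 1) is plotted with its standard error for 11 comparisons, with filled points where the adjusted p was under 0.05. The 6 filled points of the strain comparison in eWAT after 12 weeks run from Rxrg at 1.11 to Cebpd at -0.58, and Ppara in 129S1/SvImJ on rosiglitazone lies farthest right, at 1.46.

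Pparg, the master regulator of fat cells and the target of rosiglitazone, was higher in 129S1/SvImJ than in C57BL/6 eWAT on the control diet and fell with the drug in 129S1/SvImJ. On the control diet the C57BL/6 libraries had 868, 926, 853 and 1001, and the 129S1/SvImJ libraries 1043, 1166, 1233 and 1220. Every 129S1/SvImJ library was above every C57BL/6 library, at a log2 difference of 0.35 ± 0.10 (SE, adjusted p = 0.0166). This call was lost when any 1 of 3 libraries was left out (C57BL/6 replicate 3, 129S1/SvImJ replicates 3 and 4), with adjusted p between 0.0514 and 0.0529. In fat tissue, fewer cells of a type and less RNA per cell cannot be told apart. The 7 endothelial markers summed to 3509 to 5449 in the C57BL/6 and to 2168 to 2753 in the 129S1/SvImJ control libraries, and their part in the strain differences was not tested.

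On rosiglitazone, Pparg stood at 755, 858, 969 and 756 in 129S1/SvImJ and at 831, 871, 1050 and 978 in C57BL/6. The treated 129S1/SvImJ libraries all lay below the untreated ones of their strain, and the drug effect was -0.49 ± 0.10 on the log2 scale (limma, adjusted p = 0.00408, 834.5 ± 102 against 1166 ± 86.7, n = 4 each). In C57BL/6 the treated and control values overlapped (932.5 ± 99.9 against 912 ± 67.2, log2 difference 0.03 ± 0.10). The difference between these effects was -0.51 ± 0.14 with an unadjusted p of 0.00152 and an adjusted p of 0.146, so it was not called over all genes. The drug and strain comparisons share libraries and are not independent. The 7 measured macrophage markers summed to 3184 to 4610 in the 129S1/SvImJ controls and to 1898 to 3107 with the drug, and to 2819 to 5788 and 1664 to 3946 in C57BL/6, and their part was not tested. The authors' deposited table gives a log2 fold change of -0.39 (p-value 0.00242) for the same Pparg row with the drug in 129S1/SvImJ, and 0.12 (p-value 0.368) in C57BL/6, without saying whether these p-values are adjusted.

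**Figure D2:**
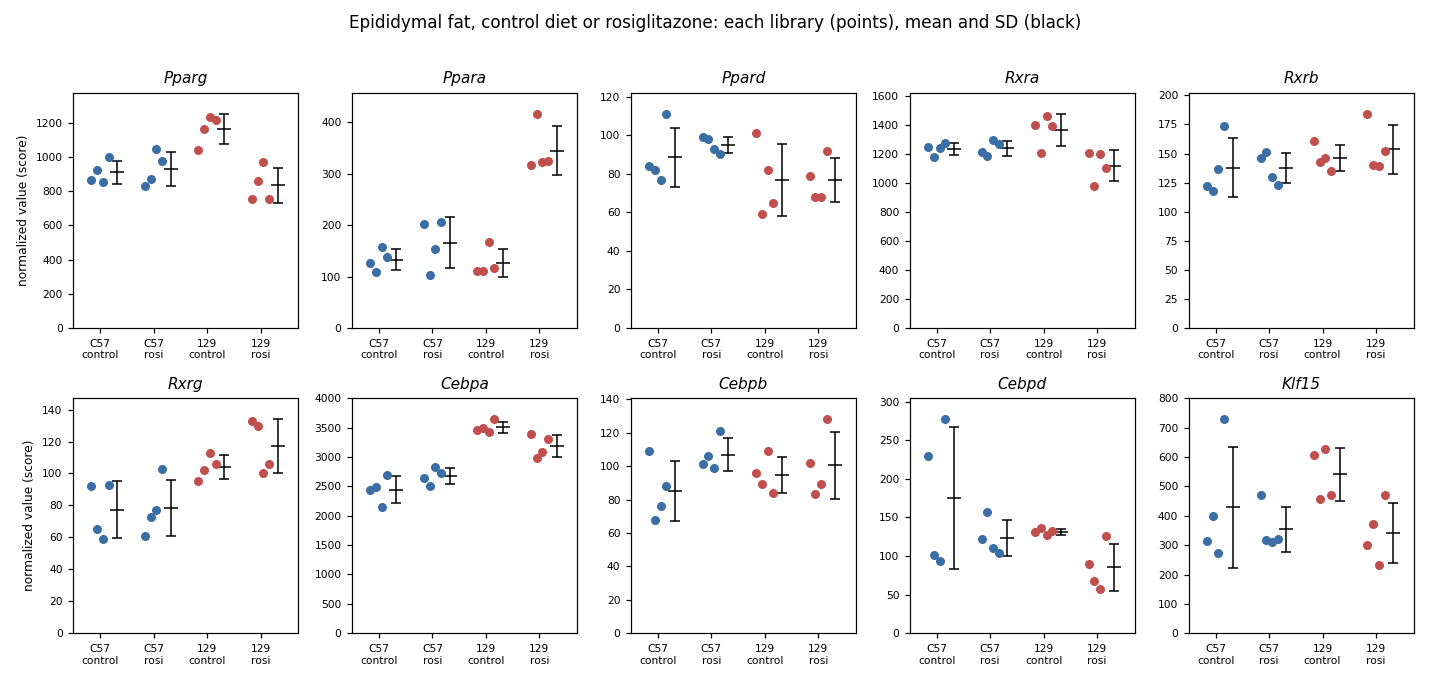
Normalized values (scores, vertical axes from 0) of the 10 genes in each eWAT library of the drug experiment are shown for C57BL/6 (blue) and 129S1/SvImJ (red), with mean and SD in black. For Pparg the red control points lie at 1043 to 1233, for Ppara the red treated points stand alone at 317 to 416, and for Cebpa all red points stand above all blue points.

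The 2 Pparg rows differ in their first exons. NM_001127330, whose start belongs to the broadly expressed isoform, and NM_011146, whose start belongs to the adipocyte isoform PPARG2, share 1640 exon bases by the GENCODE M21 annotation. These are 77.2% of the 2125 bases of the first and 92.8% of the 1767 bases of the second, which leaves 485 and 127 bases of their own. The values of the rows were nearly equal: NM_001127330 was higher in 40 of 43 libraries, and the difference ranged from -0.85% to 2.77% of its value, with a median of 1.08%. Without the drug the NM_011146 row held 854, 920, 850 and 994 in C57BL/6 and 1035, 1158, 1217 and 1213 in 129S1/SvImJ, which is the pattern of the other row. In a fit of all transcript rows each of them was called in the same 2 of 11 comparisons, strain on the control diet (log2 difference 0.35 for both) and rosiglitazone in 129S1/SvImJ (-0.49 for both). Whether reads of the shared exons were given to both rows is not stated in the sources used here, so the isoforms cannot be told apart in these values.

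In the separate experiment with 12 weeks of low fat diet, Pparg did not separate the strains in eWAT. The control arm of the drug experiment had the same diet for as long, and there the log2 strain difference was 0.35 ± 0.10. This call was therefore not repeated, and the cause was not tested. The values were 1795, 1656, 1749, 1825 and 1693 in C57BL/6 and 1508, 1485, 2203 and 1758 in 129S1/SvImJ, a wider spread around the same level (log2 difference -0.02 ± 0.12, adjusted p = 1). In iWAT the values were 1369, 1781, 1640 and 1007 in C57BL/6 and 1175, 1598, 1402 and 1937 in 129S1/SvImJ, with overlap between all 4 groups of this diet. The depot differences of -0.30 ± 0.17 in C57BL/6 and -0.19 ± 0.18 in 129S1/SvImJ were not called (adjusted p = 0.321 and 0.723). The lowest iWAT value, 1007, was in C57BL/6 replicate 4, and the highest, 1937, in 129S1/SvImJ replicate 4, the libraries with the highest brown fat marker sums.

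On chow, Pparg stood at 1886, 1532, 2046, 1850 and 1294 in C57BL/6 and at 1122, 183, 1897, 2229 and 2206 in 129S1/SvImJ. The lowest 2 values, 183 and 1122, belong to replicates 2 and 1 of 129S1/SvImJ, the libraries with epididymal transcripts. Replicate 2 was also the lowest chow library for Cebpa (600 against 2593 to 4524), Rxrg (8 against 52 to 193) and Ppara (38 against 150 to 311). Rxrb (164 against 133 to 198) and Ppard (79 against 56 to 141) were within the range of the other libraries. The log2 strain difference of Pparg was -0.58 ± 0.67 with these libraries and 0.31 without them (adjusted p = 0.74 and 0.312), and its direction turned without them. Without them the level of the remaining 3 libraries was 2111 ± 185, against 1722 ± 303 in C57BL/6. Directions also turned, without a call on either side, for Ppara, Cebpa, Cebpd and Klf15. Rxrg differed by 0.02 ± 0.86 with all libraries and by 1.07 without these 2 (adjusted p = 1 and 0.086).

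**Figure D3:**
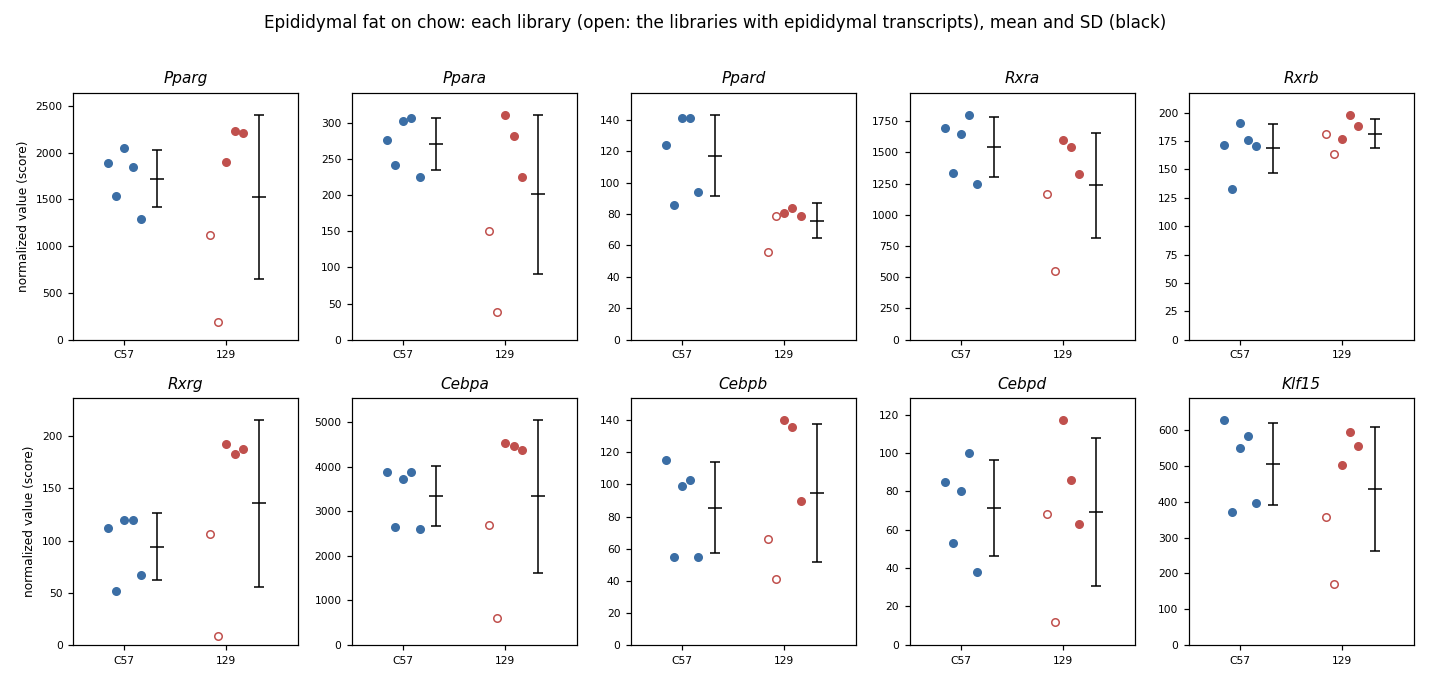
Normalized values (scores, vertical axes from 0) of the 10 genes in each chow eWAT library are shown by strain, with mean and SD in black and open circles for the 129S1/SvImJ libraries that carry epididymal transcripts. The lowest open circle is at 183 for Pparg and 600 for Cebpa, whereas the Rxrb points of both strains lie between 133 and 198.

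Ppara, the PPAR of fatty acid oxidation, showed the largest drug response among these genes. Without the drug it stood at 126, 109, 158 and 137 in C57BL/6 and at 111, 110, 167 and 117 in 129S1/SvImJ. With rosiglitazone it stood at 203, 102, 153 and 206 in C57BL/6 and at 317, 416, 322 and 325 in 129S1/SvImJ. The treated 129S1/SvImJ libraries were above every other library of the experiment, whereas the treated C57BL/6 libraries overlapped their controls. In 129S1/SvImJ the log2 rise was 1.46 ± 0.19 (limma, adjusted p = 3.9e-05), or 2.74-fold on the value + 1 scale, and it was called under every alternative run. In C57BL/6 the difference was 0.28 ± 0.19 (adjusted p = 0.561). The difference between the drug effects was 1.17 ± 0.26 (unadjusted p = 0.000236, adjusted p = 0.0762), and it was called only without C57BL/6 rosiglitazone replicate 1 (1.29, adjusted p = 0.0295). On the drug, 129S1/SvImJ exceeded C57BL/6 by 1.10 ± 0.19 (adjusted p = 0.000525), a call that was lost with the 8 treated libraries fitted alone (adjusted p = 0.0513).

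Ppara was also higher in 129S1/SvImJ in eWAT after 12 weeks, but not in the control arm of the drug experiment, which had this diet for as long (log2 difference -0.08 ± 0.19). Its values were 147, 158, 105, 150 and 161 in C57BL/6 and 274, 226, 311 and 279 in 129S1/SvImJ, without overlap (log2 difference 0.92 ± 0.15, adjusted p = 0.00497). In iWAT they were 255, 117, 159 and 576 in C57BL/6 and 121, 201, 195 and 625 in 129S1/SvImJ, with the highest value of each strain in replicate 4. The log2 strain difference in iWAT was 0.03 ± 0.69 with these libraries and -0.0003 without them. The depot difference in C57BL/6 moved from 0.68 ± 0.46 to 0.24 without them, and neither was called (adjusted p = 0.417 and 0.677).

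Brown fat and adipocyte marker sums moved with Ppara in the drug experiment. The summed value of 6 of 6 measured markers (Ucp1, Cidea, Cox7a1, Cox8b, Elovl3 and Otop1) was 72 to 110 in C57BL/6 controls, 263 to 298 in treated C57BL/6, 195 to 341 in 129S1/SvImJ controls and 1086 to 2188 in treated 129S1/SvImJ. Ucp1, the uncoupling protein that defines brown and beige fat cells, had 241, 481, 245 and 680 in treated 129S1/SvImJ and 3 to 5 in treated C57BL/6. In iWAT replicate 4, Ucp1 was 2108 in C57BL/6 and 2392 in 129S1/SvImJ, against 1 to 156 in the other iWAT libraries. The 9 adipocyte markers summed to 136247 to 155400 in C57BL/6 controls, 151171 to 176279 in treated C57BL/6, 137172 to 161132 in 129S1/SvImJ controls and 184701 to 208125 in treated 129S1/SvImJ. Over the 16 drug libraries, log2 Ppara correlated at 0.84 with the log2 brown fat sum and at 0.86 with the log2 adipocyte sum. Over the 17 low fat diet libraries these were 0.74 and 0.14, and over the 10 chow libraries 0.52 and 0.98. The points share strain, drug and depot, and on chow the 2 epididymal libraries. In eWAT after 12 weeks the brown fat sums were 106 to 172 in C57BL/6 and 257 to 520 in 129S1/SvImJ, and the adipocyte sums 165729 to 175709 and 178142 to 195457. The part of either in the Ppara differences was not tested.

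**Figure D4:**
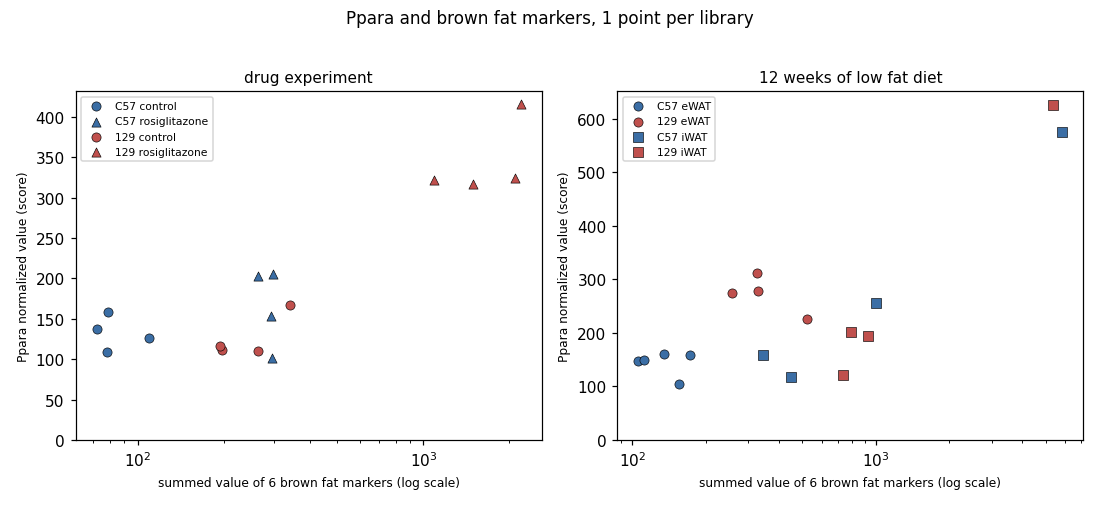
The normalized Ppara value (score, vertical axis) of each library is plotted against its summed brown fat markers (log axis), in the drug experiment (left) and after 12 weeks of low fat diet (right). Treated 129S1/SvImJ libraries lie apart at the upper right of the left panel (317 to 416), and iWAT replicate 4 of both strains does so in the right panel (576 and 625).

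Ppard, the widely expressed PPAR, was called in no comparison. On chow its values were 124, 86, 141, 141 and 94 in C57BL/6 and 56, 79, 81, 84 and 79 in 129S1/SvImJ. The strains did not overlap there, at a log2 difference of -0.61 ± 0.18 (adjusted p = 0.101), and the difference was called only with array weights (adjusted p = 0.0216). In the other groups its mean lay between 69.8 and 95, and all strain, drug and depot differences were at most 0.31 in size on the log2 scale.

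Among the RXR genes, which encode the obligate partners of the PPARs, Rxrg was higher and Rxra and Rxrb were lower in 129S1/SvImJ eWAT after 12 weeks. In these libraries Rxrg stood at 68, 71, 78, 72 and 76 in C57BL/6 and at 115, 157, 173 and 201 in 129S1/SvImJ. All 129S1/SvImJ libraries were higher, by 1.11 ± 0.15 on the log2 scale (limma, adjusted p = 0.00246), a 2.16-fold difference on the value + 1 scale. On rosiglitazone Rxrg was 61, 73, 77 and 103 in C57BL/6 and 133, 130, 100 and 106 in 129S1/SvImJ, with 1 C57BL/6 library inside the other strain's range. That difference was 0.59 ± 0.17 (adjusted p = 0.0269), and leaving out any 1 of 5 libraries ended the call (adjusted p = 0.0617 to 0.0967). Without the drug the values were 92, 65, 59 and 93 in C57BL/6 and 95, 102, 113 and 106 in 129S1/SvImJ, without overlap and without a call (0.45 ± 0.17, adjusted p = 0.0708). That difference was called with the mean value filter, with array weights and without C57BL/6 control replicate 1 or 4 (limma, adjusted p = 0.0331 to 0.0445). In iWAT the Rxrg values were 122, 69, 141 and 104 in C57BL/6 and 99, 223, 192 and 151 in 129S1/SvImJ, with overlap (0.59 ± 0.33, adjusted p = 0.572). The drug difference of Rxrg was 0.03 ± 0.17 in C57BL/6 and 0.16 ± 0.17 in 129S1/SvImJ, neither called. The other Rxrg row, NM_009107, was called in the same 2 comparisons.

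Rxra, the RXR with the highest level here, was lower in 129S1/SvImJ eWAT after 12 weeks. In the control arm of the drug experiment, with as many weeks of this diet, the log2 strain difference was 0.14 ± 0.08 and was not called. Its values were 1278, 1158, 1312, 1354 and 1471 in C57BL/6 and 1108, 1090, 988 and 1123 in 129S1/SvImJ, with all 129S1/SvImJ libraries below (log2 difference -0.28 ± 0.07, adjusted p = 0.029). The call was lost without the C57BL/6 library that carries muscle transcripts, with the same difference (adjusted p = 0.0624), and without any 1 of 4 others. The endothelial sums were 4739 to 5296 in C57BL/6 and 1817 to 2575 in 129S1/SvImJ in these libraries, and their part was not tested. In C57BL/6 iWAT Rxra had 1044, 967, 1189 and 920, which was lower than in eWAT of the strain by -0.35 ± 0.10 with 1 library inside the eWAT range (adjusted p = 0.0271). The C57BL/6 iWAT libraries are those with fewer distinct values and more rows at the floor, and the part of this was not tested. This depot call also ended without the muscle library (adjusted p = 0.0537), without any 1 of eWAT replicates 4 and 5 and iWAT replicates 2 and 4 (adjusted p = 0.0572 to 0.0743), and without both iWAT libraries with the highest brown fat marker sums (adjusted p = 0.0939). The iWAT values of 129S1/SvImJ were 911, 1217, 1200 and 1071, and their depot difference was 0.02 ± 0.10. The difference between the depot effects of the strains was 0.38 ± 0.14 and was not called (adjusted p = 0.182). With rosiglitazone Rxra went from 1402, 1209, 1460 and 1392 to 1203, 976, 1198 and 1101 in 129S1/SvImJ, without overlap but just outside the threshold (-0.29 ± 0.08, adjusted p = 0.0505). The drug difference of Rxra in 129S1/SvImJ was called with the mean value filter, without trend and robust moderation, with array weights and with a replicate block (limma, adjusted p = 0.0309 to 0.0393). It was also called without control replicate 2 or treated replicate 1 or 3 (adjusted p = 0.0283 to 0.0476). In C57BL/6 it stood at 1249, 1175, 1240 and 1276 without and at 1211, 1182, 1293 and 1268 with the drug.

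Rxrb, the ubiquitous RXR, was lower in 129S1/SvImJ eWAT after 12 weeks, with 186, 181, 182, 182 and 195 in C57BL/6 and 135, 156, 150 and 178 in 129S1/SvImJ. The groups did not overlap (-0.26 ± 0.07, adjusted p = 0.0414), and the call was lost without any 1 of 8 of the 9 libraries (adjusted p = 0.0565 to 0.0977), the muscle library among them. In the 10 other comparisons Rxrb was not called. On chow its values were 172, 133, 191, 176 and 171 in C57BL/6 and 181, 164, 177, 198 and 188 in 129S1/SvImJ.

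**Figure D5:**
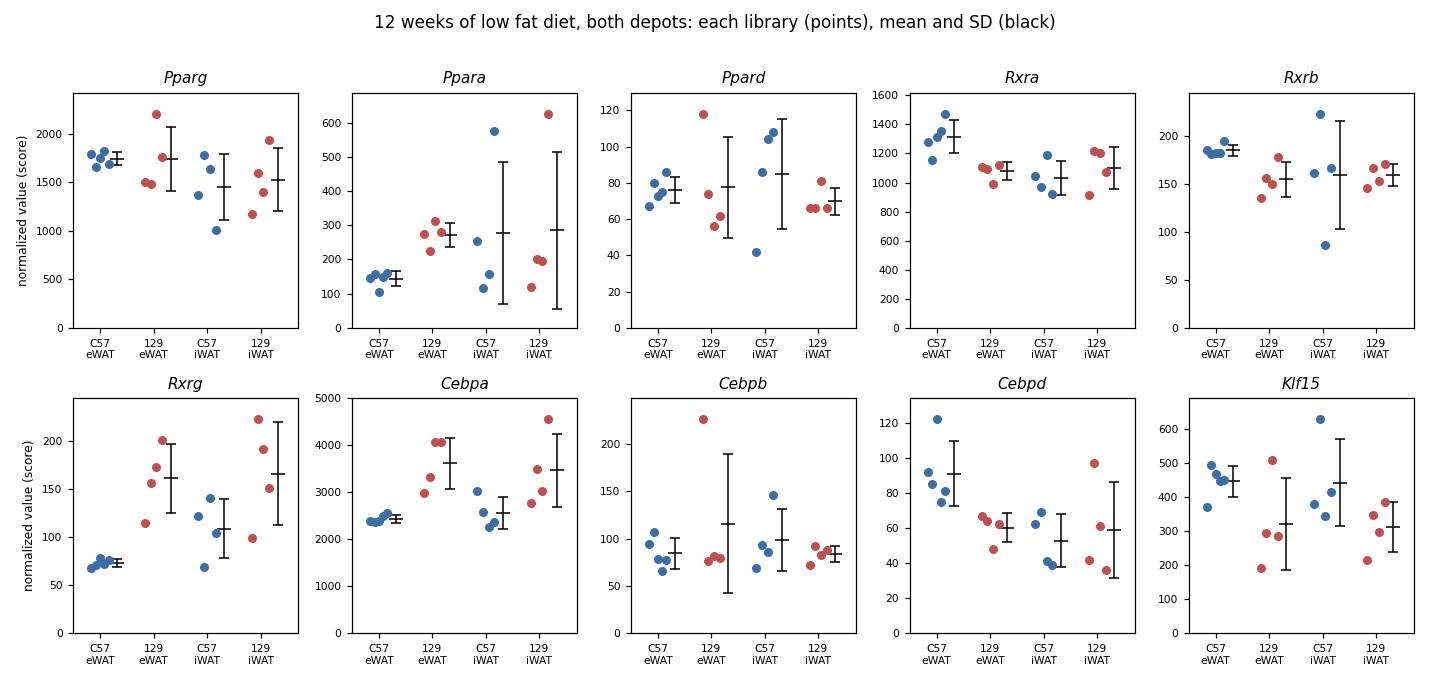
Normalized values (scores, vertical axes from 0) of the 10 genes after 12 weeks of low fat diet are shown for each eWAT and iWAT library of C57BL/6 (blue) and 129S1/SvImJ (red), with mean and SD in black. In eWAT the red Ppara, Rxrg and Cebpa points stand above the blue ones and the red Rxra, Rxrb and Cebpd points below them, whereas in iWAT the strains overlap for all 10 genes.

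Cebpa, which sustains the mature fat cell together with PPARG, was higher in 129S1/SvImJ in all 3 eWAT comparisons on low fat diet. On the control diet its values were 2433, 2487, 2146 and 2695 in C57BL/6 and 3462, 3484, 3427 and 3640 in 129S1/SvImJ. The strains did not overlap, the log2 difference was 0.53 ± 0.08 (limma, adjusted p = 0.000128), and it was called under every alternative run. On rosiglitazone they were 2638, 2499, 2831 and 2722 in C57BL/6 and 3382, 2987, 3081 and 3298 in 129S1/SvImJ, again without overlap, but the difference of 0.25 ± 0.08 sat at the threshold (adjusted p = 0.0476) and the call ended without any 1 of 7 of the 8 libraries (adjusted p = 0.0544 to 0.143). After 12 weeks Cebpa had 2381, 2356, 2385, 2485 and 2559 in C57BL/6 eWAT and 2986, 3327, 4066 and 4066 in 129S1/SvImJ eWAT. All 129S1/SvImJ libraries were above, by 0.56 ± 0.10 (adjusted p = 0.00707). In iWAT Cebpa had 3017, 2571, 2267 and 2360 in C57BL/6 and 2780, 3487, 3032 and 4551 in 129S1/SvImJ, with overlap (0.42 ± 0.18, adjusted p = 0.406). The authors' deposited table gives -0.79 for Cebpa and -0.96 for Rxrg as log2 of C57BL/6 over 129S1/SvImJ in iWAT, with p-values of 0.00118 and 0.00463. The drug itself gave 0.13 ± 0.08 in C57BL/6 and -0.14 ± 0.08 in 129S1/SvImJ, neither called, and the difference between them was -0.27 ± 0.11 (adjusted p = 0.415).

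Cebpd, an early factor of fat cell formation, was lower in 129S1/SvImJ eWAT after 12 weeks. It had 92, 85, 122, 75 and 81 in C57BL/6 and 67, 64, 48 and 62 in 129S1/SvImJ, without overlap (-0.58 ± 0.16, adjusted p = 0.0414). The call was lost without any 1 of 7 of the 9 libraries (adjusted p = 0.0529 to 0.0917). In C57BL/6 iWAT it had 62, 69, 41 and 39, all below the eWAT values of the strain, but this depot difference was not called (-0.80 ± 0.27, adjusted p = 0.0664). In the drug experiment the untreated C57BL/6 values of 229, 101, 94 and 277 spread more widely than the 131, 136, 127 and 132 of 129S1/SvImJ. With rosiglitazone Cebpd had 122, 157, 110 and 104 in C57BL/6 and 90, 68, 57 and 126 in 129S1/SvImJ, and neither drug difference was called (-0.36 ± 0.31 and -0.68 ± 0.31).

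Cebpb, the other early factor, was called nowhere. Its group means ran from 83.8 to 115.8. The highest mean, in 129S1/SvImJ eWAT after 12 weeks, rested on replicate 1, which had 226 beside 76, 82 and 79. With rosiglitazone in C57BL/6 it had 101, 106, 99 and 121 against 109, 68, 76 and 88 in the controls (0.34 ± 0.15, adjusted p = 0.317).

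Klf15, the regulator of amino acid breakdown, was not called in any comparison, and its values spread widely within groups. On the control diet it had 315, 400, 272 and 729 in C57BL/6 and 609, 458, 629 and 471 in 129S1/SvImJ, where only C57BL/6 replicate 4 lay in or above the range of the other strain. The log2 difference was 0.43 ± 0.28 with that library (adjusted p = 0.352) and 0.72 without it (adjusted p = 0.0266). With rosiglitazone it had 470, 316, 310 and 321 in C57BL/6 and 299, 372, 231 and 470 in 129S1/SvImJ, and the drug difference in 129S1/SvImJ of -0.69 ± 0.28 was not called (adjusted p = 0.195). After 12 weeks in eWAT it had 369, 492, 468, 447 and 450 in C57BL/6 and 190, 293, 509 and 286 in 129S1/SvImJ (-0.56 ± 0.26, adjusted p = 0.193). Without replicate 3 of 129S1/SvImJ, which had 509, the difference was -0.81 (adjusted p = 0.0219).

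The genes around these factors were counted in 4 lists, and each count is to be read against the share of all genes called in that comparison. These shares include genes at or near the floor. They were larger among genes with a mean value of at least 10, at 4251 of 12664 genes between the strains on the control diet. Of 42 coregulators and adipogenic partners, 15 differed between the strains on the control diet (17.5% of all genes called), 2 higher and 13 lower in 129S1/SvImJ, with a median log2 difference of -0.13 against 0.01 over all genes. Without replicate 3 of 129S1/SvImJ, 9 were called. Ncor1, a corepressor of nuclear receptors, stood at 988 ± 25.8 in 129S1/SvImJ against 1575 ± 79.3 in C57BL/6 (SD, n = 4 per strain), a log2 difference of -0.67 ± 0.10 (limma, adjusted p = 8.95e-05). Klf2, which represses Pparg, differed by -1.01 ± 0.15 and the acetyltransferase gene Crebbp by -0.51 ± 0.11. On rosiglitazone (10.7%) 3 were higher and 6 lower in 129S1/SvImJ, among them the glucocorticoid receptor gene Nr3c1 (-0.50 ± 0.09), Ddit3 (0.64 ± 0.14) and the LXR gene Nr1h3 (0.41 ± 0.09). This count of 9 was 4 without C57BL/6 replicate 1 and 5 without 129S1/SvImJ replicate 1. The drug itself raised 2 and lowered 1 in C57BL/6 (2.43%), and raised 1 and lowered 1 in 129S1/SvImJ (5.51%). Ppargc1b, a coactivator of the PPARs, was called in both (0.99 ± 0.24 and 0.86 ± 0.24, adjusted p = 0.0333 and 0.0409), beside Klf2 (-0.64 ± 0.15) and Stat5a (0.44 ± 0.11) in C57BL/6 and Nr3c1 (-0.39 ± 0.09) in 129S1/SvImJ. Leaving out 1 library ended the Ppargc1b call in 6 of 8 fits in each strain, and those of Klf2 and Stat5a in 5 of 8. In eWAT after 12 weeks (21.7%) 5 were higher and 5 lower in 129S1/SvImJ, among them the coactivator gene Ppargc1a (1.10 ± 0.15), Foxo1 (1.18 ± 0.19) and the lipogenic factor Srebf1 (-1.32 ± 0.19). On chow (4.99%) 2 were lower, among them the coactivator gene Ncoa3 (-0.43 ± 0.08), whose call was lost in 5 of 10 fits without 1 library. Without the libraries that carry epididymal transcripts 7 were called there, beside 2597 of all 22869 genes in place of 1142. In iWAT (1.69%) 0 of the 42 were called.

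Between depots, 9 of the 42 coregulators and partners were higher in iWAT than eWAT of C57BL/6 and 0 lower, where 13.1% of all genes were called. The part in these calls of the fewer distinct values and more rows at the floor in C57BL/6 iWAT was not tested. Prdm16, which drives the brown and beige programme, had 215 ± 53.9 in iWAT and 49.6 ± 6.66 in eWAT (2.07 ± 0.26, adjusted p = 0.000233), and Ppargc1a (1.97 ± 0.29) and Foxo1 (1.04 ± 0.17) were also higher. Without both iWAT libraries with the highest brown fat sums, 8 of the 42 were called and the Ppargc1a difference was 1.63. In 129S1/SvImJ (1.72%) only Prdm16 was called (1.38 ± 0.28, adjusted p = 0.0213), and not in 3 of 8 fits without 1 library. For 4 of the 42 (3.14%) the depot effects of the strains differed. In all 4 the iWAT minus eWAT difference was lower in 129S1/SvImJ than in C57BL/6. The smallest p-values were those of Nfia (-1.49 ± 0.26), Foxo1 (-1.16 ± 0.24) and Ppargc1a (-1.94 ± 0.42). Only 2 of the 42 were called without C57BL/6 eWAT replicate 3 or 5 or without 129S1/SvImJ eWAT replicate 1, and the Ppargc1a call was lost in 3 of 17 fits without 1 library.

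Of 33 measured PPAR targets of fat, 16 rose and 2 fell with rosiglitazone in 129S1/SvImJ (5.51% of all genes called), with a median of 0.55 on the log2 scale against -0.0046 over all genes. In C57BL/6 (2.43%), 11 rose and 0 fell, with a median of 0.15 against 0, and 7 were called without replicate 3 on the drug. The list holds all 9 adipocyte markers, and Ucp1 and Cidea of the brown fat markers, so its counts and these marker sums are not separate observations. In 129S1/SvImJ the fatty acid activating enzyme gene Acsl1 went from 6910 ± 1610 to 18136 ± 1520 (n = 4 each, 1.42 ± 0.13, adjusted p = 5.35e-07), the glycerol channel gene Aqp7 rose by 1.08 ± 0.10 and the lipase gene Mgll by 0.81 ± 0.08. In C57BL/6 the smallest p-values belonged to the glycerol phosphate dehydrogenase gene Gpd1 (1.32 ± 0.12), the lipid droplet gene Cidea (1.79 ± 0.22) and Acsl1 (0.97 ± 0.13). The drug effects differed between the strains for 3 of the 33 (0.21%), Gpd1 (-0.96 ± 0.17), Mgll (0.51 ± 0.11, adjusted p = 0.0494) and Ucp1, which had 3 to 5 in every C57BL/6 library of the experiment, near the floor, so that no size is given. Leaving out 1 library ended the Mgll call in 14 of 16 fits, that of Ucp1 in 3 and that of Gpd1 in 1, and the count of 3 ranged from 0 to 6. Fabp4, the fatty acid binding protein of fat cells, rose in 129S1/SvImJ (0.86 ± 0.12, adjusted p = 6.39e-05) and had 0.36 ± 0.12 in C57BL/6 (adjusted p = 0.118). Adipoq, the adiponectin gene, had 0.04 ± 0.12 and 0.07 ± 0.12, and Cd36, the fatty acid transporter gene, 0.03 ± 0.08 and -0.17 ± 0.08, none of them called. Most treated libraries of both strains held the same high Cd36 score, so its differences carry little resolution.

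Between the strains, 10 PPAR targets of fat were higher and 6 lower in 129S1/SvImJ on the control diet (17.5% of all genes called), 11 and 0 on rosiglitazone (10.7%), and 12 and 6 in eWAT after 12 weeks (21.7%). On rosiglitazone 7 were called without C57BL/6 replicate 3, 6 without 129S1/SvImJ replicate 1 and 7 without 129S1/SvImJ replicate 4. On the control diet these included Cidea (2.76 ± 0.22), the lipid synthesis gene Agpat2 (1.00 ± 0.12) and Aqp7 (-0.75 ± 0.10), and on rosiglitazone Cidea (3.28 ± 0.22), Mgll (0.77 ± 0.08) and Ucp1, with C57BL/6 near the floor. After 12 weeks Pck1, the glyceroneogenic enzyme gene, differed by 1.08 ± 0.10, Cyp4b1 by -1.27 ± 0.11, Fabp4 by 0.62 ± 0.10 and Cd36 by 0.11 ± 0.03, the last of which was lost in 7 of 9 fits without 1 library. Ucp1 had 22 to 62 in 129S1/SvImJ eWAT there and lay at the floor of 1 in all C57BL/6 eWAT libraries. In iWAT 1 of the 33 was called (1.69%), Olr1, at values near the floor and not in 7 of 8 fits without 1 library. Between depots, 1 was higher and 4 lower in iWAT of C57BL/6 (13.1%), including the lipid droplet gene Cidec (-0.97 ± 0.17), Olr1 near the floor and Cidea (3.74 ± 0.70, 2.91 without both iWAT libraries with the highest brown fat sums), and 8 in all were called without iWAT replicate 2. In 129S1/SvImJ (1.72%) 0 were called, and for Cyp4b1 alone the depot effects of the strains differed (3.14% of all genes), by 1.24 ± 0.31 (limma, adjusted p = 0.0486). That call was lost in 15 of 17 fits without 1 library, and without both iWAT libraries with the highest brown fat sums (adjusted p = 0.0677). On chow (4.99%) 1 was called, Fgf21, also near the floor. Without the libraries that carry epididymal transcripts, 13 of 33 were called on chow, where 2597 of all 22869 genes were called in place of 1142. The Fabp4 difference on chow then turned from -0.10 ± 0.55 to 0.56 (limma, adjusted p = 0.0111).

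Of 29 PPAR targets of fatty acid oxidation, 18 rose with rosiglitazone in 129S1/SvImJ (median 0.90, 5.51% of all genes called) and 12 in C57BL/6 (median 0.48, 2.43%), with 0 lower in either strain. The count in C57BL/6 was 6 without control replicate 2 or treated replicate 1 and 7 without treated replicate 4. Cpt1b, the muscle and brown fat form of the enzyme that lets fatty acids into mitochondria, went from 49 ± 24.4 to 423.8 ± 116 in 129S1/SvImJ (3.19 ± 0.27, adjusted p = 1.02e-06) and from 29.2 ± 3.59 to 107 ± 16.9 in C57BL/6 (1.83 ± 0.27, adjusted p = 0.00106). Hadha, of the mitochondrial trifunctional protein, rose by 1.29 ± 0.12 in 129S1/SvImJ and by 0.63 ± 0.12 in C57BL/6. The drug effects of the strains differed for 0 of the 29 in the test across all genes (0.21% of all genes called), and for 4 without C57BL/6 treated replicate 1. Between the strains, 14 were higher and 2 lower in 129S1/SvImJ on rosiglitazone (10.7%), among them Acaa2 (1.36 ± 0.15), Ucp2 (1.20 ± 0.14) and Acadvl (1.17 ± 0.14), 5 and 5 on the control diet (17.5%), and 8 and 1 in eWAT after 12 weeks (21.7%). After 12 weeks 5 were called without C57BL/6 replicate 1 or 3, and 4 without C57BL/6 replicate 4 or 129S1/SvImJ replicate 4. The calls without the drug included Vnn1 (-2.22 ± 0.26), a liver target of PPARA, and Ucp2 (1.04 ± 0.14). The calls after 12 weeks included Ucp2 (1.73 ± 0.11) and Acaa2 (0.72 ± 0.14). Ucp2 was also the 1 gene of the list called on chow (1.10 ± 0.15, with 4.99% of all genes called). Without the epididymal libraries 9 were called there, beside 2597 of all 22869 genes in place of 1142. In iWAT of C57BL/6, 4 were higher than in eWAT (13.1%), including Cpt2 (0.73 ± 0.19) and Creb3l3 near the floor. This count was 1 to 6 when 1 library was left out, and 1 without iWAT replicate 4.

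Of 19 KLF15 targets and partners of amino acid breakdown, 8 were higher and 0 lower in 129S1/SvImJ on the control diet (median 0.38, 17.5% of all genes called) and 7 and 0 on rosiglitazone (median 0.40, 10.7%). Leaving out 1 library moved these counts to between 5 and 11 and to between 2 and 11. On the control diet 5 were called without C57BL/6 replicate 2 or 3 or 129S1/SvImJ replicate 3 or 4. On rosiglitazone 11 were called without C57BL/6 replicate 1, 3 and 4 without its replicates 2 and 3, and 2 and 4 without 129S1/SvImJ replicates 2 and 4. Bckdhb, a subunit of the branched-chain ketoacid dehydrogenase, had 586 ± 20.8 in 129S1/SvImJ and 325 ± 23.3 in C57BL/6 without the drug (0.85 ± 0.12, adjusted p = 3.59e-05), beside Gpt (0.73 ± 0.12) and Mut (0.64 ± 0.13). On rosiglitazone Bckdhb (1.13 ± 0.12), Auh (0.71 ± 0.13) and Bckdha (0.69 ± 0.17) had the smallest p-values. The drug lowered Oat, ornithine aminotransferase, in both strains (-0.47 ± 0.10 in C57BL/6 and -0.64 ± 0.10 in 129S1/SvImJ), the 1 call in C57BL/6 (2.43%). In 129S1/SvImJ (5.51%) 5 rose and 2 fell, 3 to 8 in all when 1 library was left out, with Mccc1 (0.66 ± 0.15) and Prodh (-1.06 ± 0.24) beside Oat. In eWAT after 12 weeks (21.7%) 3 were higher and 4 lower (11 in all without 129S1/SvImJ replicate 1), Bckdhb (1.13 ± 0.13), Prodh (-0.76 ± 0.13) and Slc2a4 (-0.78 ± 0.14) among them. On chow (4.99%) Oat alone was called (0.34 ± 0.05). Between the depots of C57BL/6 (13.1%) Gpt2 (-0.84 ± 0.22) and Tat, near the floor, were lower in iWAT, a count of 0 to 2 when 1 library was left out. The part of the fewer distinct values and more rows at the floor in C57BL/6 iWAT was not tested.

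Over the 16 drug libraries, the 3 genes of 8979 ranked whose log2 values followed each of Pparg, Cebpa and Klf15 most closely were named, as a description. For Klf15 these were Pygl (Pearson r = 0.89), Isoc2a (0.86) and Adrb3 (0.85), with 0.75, 0.57 and 0.69 over the 17 low fat diet libraries. For Cebpa they were Swi5 (0.94), R3hcc1 (0.94) and Sumf2 (0.93), with -0.16, 0.31 and -0.11 over the low fat diet libraries. For Pparg they were Copg (0.81), Rasgrp2 (0.80) and Stx2 (0.80), with 0.48, -0.20 and 0.29. The libraries share strain and drug. Pparg and Cebpa correlated with each other at 0.43 over the drug libraries and 0.33 over the low fat diet libraries.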

How the data were processed

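RNA-seq values of 43 libraries in 10 groups were taken from 5 tables. The deposited values are whole-number scores that the authors normalized per RefSeq transcript, with a floor of 1. Per the submitters' processing notes, HOMER and the build mm9 were used. The sources used here do not state how reads were counted or values normalized. The depth of the libraries is therefore unknown, and no interval from counts is given. The log2 fold changes and p-values in the authors' deposited tables were printed as deposited, and it is not stated whether those p-values are adjusted. Neighbouring high values are often equal between libraries, as rank-based scaling would give, so the highest genes carry little resolution.

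For each of 22869 symbols the row with the highest total was kept. limma 3.58.1 (R 4.3.3) was fitted to log2(value + 1) with 1 mean per group, trend and robust moderation, and Benjamini-Hochberg adjustment over all symbols. A gene was called at an adjusted p under 0.05, two-sided. The drug fit used 16 libraries, the depot fit 17 and each other strain fit its own libraries. The 8 control libraries occur in both drug tables with 0 differing values. Of 49 samples in the labels, 6 (5 of F1 mice and 1 GRO-seq) were not used here. Columns of values without a sample numbered 0.

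The members, the gene lists and the marker lists were chosen with earlier results of these data known. Besides the 10 genes, up to 3 called genes of each list with the smallest p-values were named per comparison, and Fabp4, Cd36 and Adipoq always; some genes that this rule names are not reported here. Of the markers counted, lymphocyte sums were 6 to 3108 in iWAT and 16 to 93 in eWAT, fat progenitor sums 1386 to 5424 in all groups, and sums for skin and glandular epithelium 6 to 4764. The fit was tested on simulated data with 22869 genes: of 100 genes changed by 1 and 100 changed by 2 on the log2 scale, it recovered 40% and 74% for strain on chow, 86% and 99% for rosiglitazone in 129S1/SvImJ, and 20% and 71% for strain in iWAT. Alternatives changed the pseudocount (16), a filter on the mean value (10), scaling, weights, moderation, the libraries fitted together, a replicate block and single libraries.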

Additional observations from a re-analysis of the deposited data

Results flagged for a closer look

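Of 100 gene and group combinations, 8 held a library far from the others by Dixon's test at 95%, and chance gives about 1 in 20. Ppara had 4 of them. Replicate 3 of 129S1/SvImJ on the control diet had 167 against 110 to 117, and replicate 2 of 129S1/SvImJ on rosiglitazone had 416 against 317 to 325. Replicate 3 of C57BL/6 eWAT after 12 weeks, the library with the skeletal muscle sum of 10867, had 105 against 147 to 161. Replicate 4 of 129S1/SvImJ iWAT, with the highest brown fat sum of its group, had 625 against 121 to 201.

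Ppard had 56 in replicate 1 of 129S1/SvImJ on chow, a library with epididymal transcripts, against 79 to 84, and 81 in replicate 3 of 129S1/SvImJ iWAT against 66 in the others. Cebpb had 226 in replicate 1 of 129S1/SvImJ eWAT after 12 weeks against 76 to 82. Klf15 had 470 in replicate 1 of C57BL/6 on rosiglitazone against 310 to 321.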

How the results depend on the processing

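Of 14 calls among the 10 genes, 3 were ended by no alternative run: Cebpa between the strains on the control diet, and Pparg and Ppara with rosiglitazone in 129S1/SvImJ. Of 2000 values of these genes under alternatives, 1811 kept their direction and side of the threshold, whatever their change in size. Of the others, 60 lost a call, 18 gained one, 111 changed direction without a call and 0 called values changed sign. The count called on chow went from 0 to 1 with array weights. Between the strains on rosiglitazone it went from 3 to 1 with the libraries of the comparison alone. In C57BL/6 the depot count went from 1 to 2 with a mean value of at least 10 and with median-of-ratios scaling. It went to 0 with array weights, with the libraries of the comparison alone, without the muscle library and, an alternative chosen after seeing the data, without both iWAT libraries with the highest brown fat sums. The cause was not tested.

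Leaving out 1 library at a time gave 1 to 4 calls between the strains on the control diet, 1 to 3 on rosiglitazone, 3 to 5 in eWAT after 12 weeks, 2 to 3 for rosiglitazone in 129S1/SvImJ, 0 to 1 for strain by rosiglitazone and 0 to 1 for the depots of C57BL/6. The other 5 comparisons had 0 calls throughout. The Fabp4 difference on chow was -0.26 to 0.46 when 1 library was left out, 0.46 without replicate 2 of 129S1/SvImJ, and 0.56 without both epididymal libraries, and the last 2 were called in the opposite direction. Samples with the same number did not deviate together in every pair of any comparison (r from -0.51 to 0.57). Between the strains, r was over 0.1 in 3 of 5 such pairs on chow and in 3 of 4 in iWAT. Whether the numbers pair the samples cannot be told from these values. With a replicate block, 0 of the 10 genes were called in eWAT after 12 weeks in place of 6, 0 between the depots of C57BL/6 in place of 1, 2 in place of 3 between the strains on rosiglitazone and 3 in place of 2 with rosiglitazone in 129S1/SvImJ. Of 800 list counts under alternatives, 193 moved by over 1.5 times. Depth is unknown, and values near the floor of 1 give no fold.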

Other observations

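Other genes of this set were also set against the summed brown fat markers. Over the 16 drug libraries the Pearson correlation of log2 values was 0.64 for Rxrg, 0.51 for Cebpa, -0.52 for Rxra and -0.58 for Cebpd, and over the 17 low fat diet libraries 0.46, 0.40, -0.63 and -0.68. For Pparg, Cebpb, Klf15, Ppard and Rxrb it was -0.355, 0.397, -0.239, -0.268 and 0.3 over the drug libraries. Over the low fat diet libraries it was -0.491, 0.158, -0.129, -0.03 and -0.108 for these genes. These libraries share strain, drug and depot. On chow, Pparg and Cebpa correlated at 0.99 over 10 libraries, 2 of which carry epididymal transcripts and have low values of both genes.

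The Klf15 promoter window held the E-box CACGTG at 228 to 223 and at 172 to 167 bases upstream of its start, and 6.02% of all windows hold this motif. Cd36 was listed at 22517 in all 4 C57BL/6 libraries on rosiglitazone and in 3 of 4 129S1/SvImJ libraries on the drug.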
